A study of Mus musculus with 5 samples.

Results

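Cwc22 and 9 genes that work with it were examined in the dentate gyrus (DG), the part of the hippocampal formation that receives its cortical input and keeps a niche of neural stem cells in the adult. The 10 genes are Cwc22, Eif4a3, Magoh, Rbm8a, Casc3, Upf1, Upf2, Upf3b, Smg1 and Cwc27, taken by symbol out of 23420 gene symbols, and Cwc22 was selected on these same values because it had the largest decrease of any gene in low runners and none in high runners. What follows on Cwc22 in those groups, and in the library of all runners, is therefore a description. All 10 genes belonged to the 13550 expressed genes, those whose mean over the libraries reached 5 on the log2 scale described below.

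The study set running against enrichment without running, with 5 sequencing libraries of polyadenylated DG RNA from wild-type CD1 mice, an outbred strain, given as 4 months old in the labels. LD mice were housed individually with a locked disk, CE mice (complex environment) lived in groups with a locked disk and tunnels, and RUN mice were housed individually with a running disk. Each of these libraries held pooled RNA of 8 mice. The L-RUN and H-RUN libraries held RNA of the 4 RUN mice with the lowest and the 4 with the highest running distances, so RUN was a repeat library of the same RNA. These groups were formed by the distance run and not by assignment, so running and whatever else differed between the mice of both pools cannot be told apart. With 1 library per group no test was possible and no p-value is given, and the spread between mice is unknown.

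Values are regularized log values on the log2 scale, which the authors shrank towards each gene's mean, and the depth of the libraries is unknown. A difference is a group's value minus the LD value, all 4 differences share the single LD library, and a gene was called lower or higher where that value was 0.3 or more in size, the cut-off of the study. The distance between the measured RUN value and that of the 2 runner pools mixed in equal parts, computed for each gene on the linear scale and called its residual, gave the only measure of error. For a difference between 2 libraries this technical SD was 0.0365 over all expressed genes, and it ranged from 0.0222 to 0.0473 over the deciles of expression. It covers library preparation and sequencing, comes from the RUN, L-RUN and H-RUN libraries alone, and leaves out dissection, RNA extraction and the spread between mice. Many genes lay beyond it. The median size of a difference from LD over all expressed genes was 0.0600 in CE, 0.0594 in RUN, 0.0515 in H-RUN and 0.0735 in L-RUN.

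CWC22 is a spliceosome protein that brings the helicase eIF4A3 to pre-mRNA, which is the step that allows an exon junction complex (EJC) to be placed upstream of each new exon junction. The core of that complex is eIF4A3, MAGOH and RBM8A (also called Y14), joined by CASC3, and it travels with the mRNA to the cytoplasm. There, an EJC that remains downstream of a stop codon marks the transcript for nonsense-mediated decay (NMD) through UPF3B, UPF2 and UPF1, the last of which is phosphorylated by the kinase SMG1. CWC27 is a cyclophilin-like spliceosome protein that also contacts eIF4A3. In the mouse, Cwc22 lies in a segment of chromosome 2, known as R2d, that occurs in different numbers of copies in different stocks.

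Cwc22 is on the minus strand of chr2:77881159-77946375 (GRCm38, the same assembly as mm10), and its longest transcript has 21 exons and 3471 bases. The annotation also holds 7 single-exon genes that copy part of its transcript, Gm13698, Gm13693, Gm13695, Gm13696, Gm13694, Gm13697 and Gm13691, on the plus strand of chr2:83955693-83993045, 6.01 Mb past the end of Cwc22. Each copy has 2493 bases, of which 2474 aligned to Cwc22. The identity over these aligned bases was 98.4%, with 40 gap bases in the alignment left out. Of all stretches of 50 bases in the Cwc22 transcript, 31.9% also occurred in another gene. The extent of this likeness is visible in exon 6 of Cwc22, the longest exon that is coding throughout (chr2:77929256-77929498, minus strand), set beside the matching stretch of Gm13698 (chr2:83955899-83956141, plus strand). Both are shown 5′ to 3′ in the sense of the transcript, from the GENCODE transcripts of GRCm38, and the capitals mark the 8 of 243 bases at which they differ.
Cwc22: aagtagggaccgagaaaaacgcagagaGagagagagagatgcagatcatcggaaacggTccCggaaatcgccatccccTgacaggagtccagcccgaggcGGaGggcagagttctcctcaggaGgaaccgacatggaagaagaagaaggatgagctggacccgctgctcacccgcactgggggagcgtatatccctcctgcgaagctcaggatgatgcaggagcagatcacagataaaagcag
Gm13698: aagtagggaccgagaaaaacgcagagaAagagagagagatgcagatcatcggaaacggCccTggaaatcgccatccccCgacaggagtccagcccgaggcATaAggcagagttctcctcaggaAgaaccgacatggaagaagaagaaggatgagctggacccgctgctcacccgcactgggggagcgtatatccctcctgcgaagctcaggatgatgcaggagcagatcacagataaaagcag
None of the 7 copies had a value in the files (0 of 7), and how reads that match several places were counted is not given in the sources used here. The value listed for Cwc22 is thus that of the reads assigned to this symbol. A part of them could come from copies, and reads of Cwc22 that also match copies could be missing from the value.

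The regularized log value of Cwc22 was 13.68 in LD, 13.24 in CE, 13.32 in RUN, 13.69 in H-RUN and 12.54 in L-RUN. LD and H-RUN stood together at the top, CE and RUN lay between, and L-RUN was far below the other libraries. Cwc22 ranked 415th by mean value among the expressed genes. Per kilobase of transcript its LD level was 11.89 on the log2 scale, above 97.5% of expressed genes.

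Against LD, Cwc22 was lower by 1.15 in L-RUN on the log2 scale, at 45.1% of the LD level. Its difference was -0.44 in CE (73.5% of LD), -0.37 in RUN (77.6% of LD) and 0.003 in H-RUN (100.2% of LD), with a technical SD of 0.022. All differences but the one in H-RUN were many times the technical SD, and CE mice, which did not run, had a lower value than LD mice as well. Ordered from the lowest difference up, Cwc22 was the 1st of all expressed genes in L-RUN, the 3rd in CE and the 50th in RUN. The genes next to it in L-RUN were Dgkh, with a difference of -0.89, and Grin2a, with -0.88, and both of these were also below LD in H-RUN, at -0.24 and -0.29. Between both pools of runners, which leaves LD out, Cwc22 in L-RUN was at 45.0% of its level in H-RUN, a difference of -1.15. By level, H-RUN and LD were 0.131 technical SDs apart, LD and RUN 16.5, RUN and CE 3.46, and CE and L-RUN 31.8. H-RUN and LD were thus the neighbours that did not differ beyond that spread. The spread is that of genes at this level of expression and not of Cwc22 itself. The gap of 0.077 between RUN and CE was smaller than the residual of Cwc22, 0.094, so the order of RUN and CE is uncertain. The paper also measured Cwc22 by qPCR in contralateral DG RNA of these mice and reported a marked decrease in L-RUN. That measurement used the same mice and was not examined here.

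**Figure D1:**
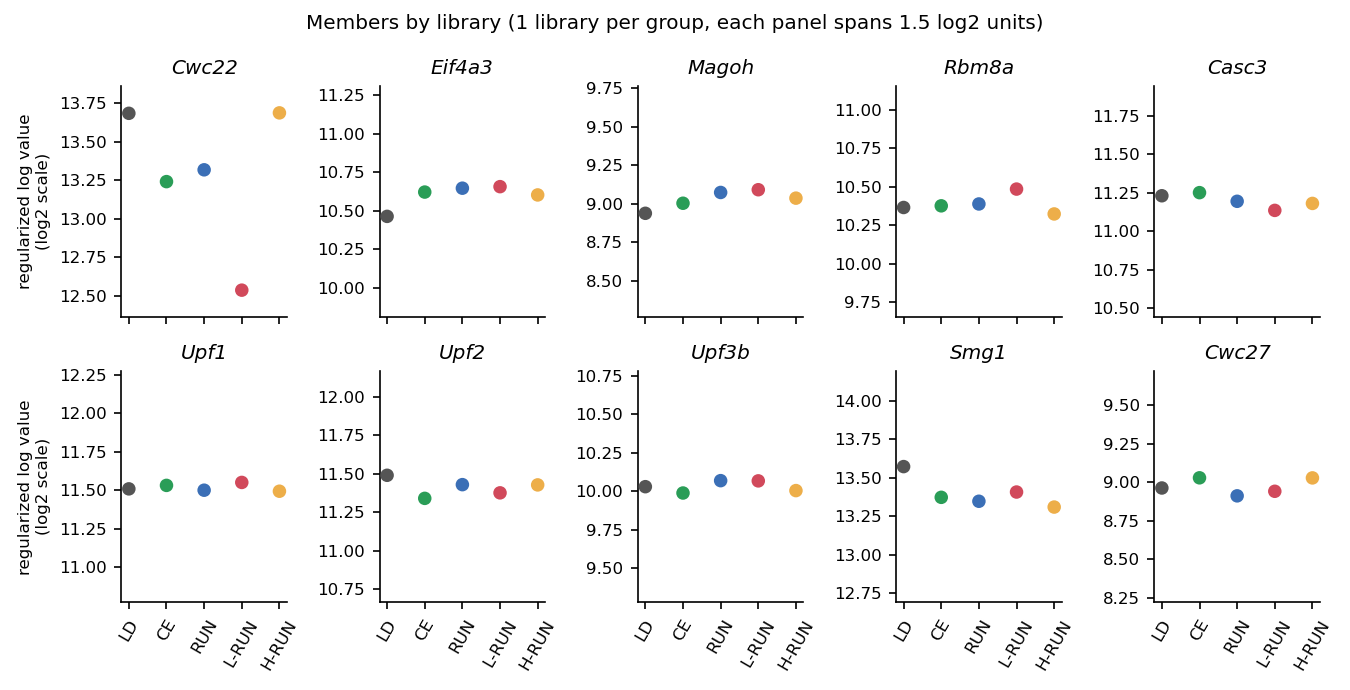
Regularized log value (log2 scale, y axis) of each of the 10 genes in the 5 libraries (x axis), 1 point per library of pooled RNA, with every panel spanning the same number of log2 units. Cwc22 goes from 13.69 in H-RUN down to 12.54 in L-RUN, while no other gene has a range above 0.263.

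Since RUN held the RNA of the L-RUN and the H-RUN mice, its value could be computed. The equal mixture gave 13.22 for Cwc22, and 13.32 was measured, which is 0.094 higher on the log2 scale or 6.73% on the linear scale. The measured value thus lay between those of L-RUN and H-RUN, nearer to H-RUN than the equal mixture. The residual was 4.89 times the residual SD of genes at that level of expression, and 98 expressed genes (0.723%) had one at least as large. A share of L-RUN of 41.1% would give the RUN value, against 50% for an equal mixture. For the 37 genes with an L-RUN to H-RUN difference of at least 0.5 in size, the same share had a median of 49.7% (quartiles 43.8% and 53.2%), and Cwc22 was the 4th lowest. The residuals of the other 9 genes lay between -0.074, for Cwc27, and 0.036, for Casc3.

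**Figure D2:**
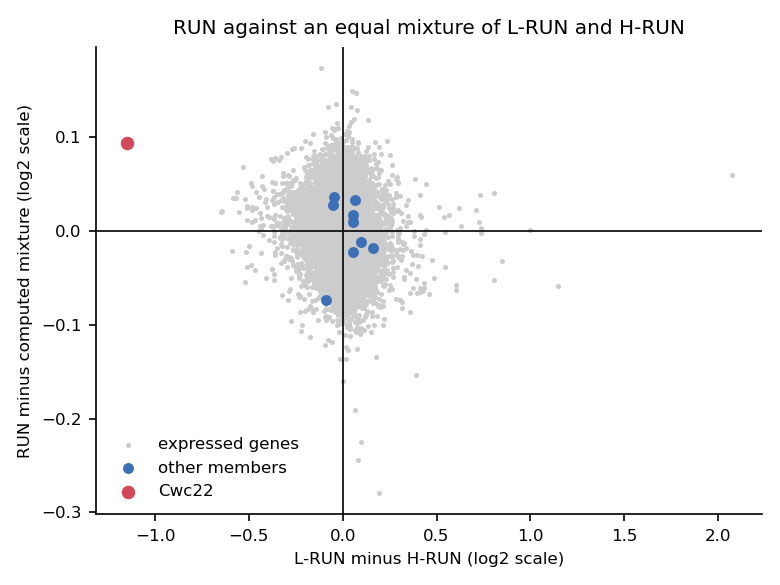
RUN minus the computed equal mixture of its 2 pools (y axis, log2 scale) against L-RUN minus H-RUN (x axis, log2 scale), 1 point per expressed gene. Cwc22 stands alone at the left with a difference of -1.15 and a residual of 0.094, and the other 9 genes lie in the cloud around 0.

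Of the 10 genes, 1 was called lower and 0 higher in CE, where 0.266% of expressed genes were called lower and 0.332% higher. In RUN 1 was called lower and 0 higher, against 0.952% and 0.362% of expressed genes. In L-RUN 1 was lower and 0 higher, against 2.33% and 0.797%, and in H-RUN 0 were called in either direction, against 0.472% and 0.354%. Between L-RUN and H-RUN 1 was lower and 0 higher, against 0.974% and 0.561%. The gene called was Cwc22 each time. Its selection fixes this for L-RUN and for L-RUN against H-RUN, and also fixes that Cwc22 was not called in H-RUN. RUN held the RNA of both runner pools, so its call largely follows from the selection as well. The computed mixture for Cwc22 was 13.22, beside 13.68 in LD. None of the other 9 genes reached 0.3 in any group. Their ranges over the libraries were 0.057 to 0.263, beside a median of 0.124 for all expressed genes.

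Of the EJC core, Eif4a3, the helicase that clamps onto RNA and the direct partner of CWC22, had its lowest value in LD. It was at 10.46 in LD, 10.62 in CE, 10.65 in RUN, 10.60 in H-RUN and 10.66 in L-RUN. The differences from LD were 0.16, 0.18, 0.14 and 0.19 in that order, up to 5.34 technical SDs, and all 4 other libraries thus lay above LD, with gaps of less than 1 technical SD between neighbours among these 4. With the trend on transcript length removed, which is described under Smg1, the differences were 0.12, 0.13, 0.11 and 0.12, and with a baseline averaged over LD and CE they were 0.10 in RUN, 0.06 in H-RUN and 0.11 in L-RUN. L-RUN and H-RUN differed by 0.05 for Eif4a3, where they differed by 1.15 for Cwc22. A share of 24.4% of the 50-base stretches of Eif4a3 also occurs in another gene, among them Gm5576, Gm5580 and Gm8994 on chromosome 6.

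Magoh, which with RBM8A locks eIF4A3 on the RNA, was at 8.94 in LD, 9.004 in CE, 9.07 in RUN, 9.04 in H-RUN and 9.09 in L-RUN, so LD was the lowest here too. Its largest difference was 0.15, or 3.23 technical SDs. Rbm8a stood at 10.36 in LD, 10.38 in CE, 10.39 in RUN, 10.32 in H-RUN and 10.48 in L-RUN. L-RUN was the highest library for Rbm8a, 0.12 above LD and 0.16 above H-RUN. Casc3, which binds the core and stabilizes it, was at 11.23 in LD, 11.25 in CE, 11.19 in RUN, 11.18 in H-RUN and 11.14 in L-RUN. Its lowest library was L-RUN, with a difference of -0.10. Of the Casc3 transcript, 11.4% of 50-base stretches lie over Gm12359, an antisense gene, and whether the counting used strand is not given in the sources used here.

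Smg1, the NMD kinase that phosphorylates UPF1, was below LD in all 4 groups. It was highest in LD at 13.57, with 13.37 in CE, 13.35 in RUN, 13.31 in H-RUN and 13.41 in L-RUN. The differences were -0.20, -0.23, -0.26 and -0.17, up to 11.8 technical SDs, and in H-RUN Smg1 was the 100th lowest of the expressed genes. The 4 libraries other than LD lay close to each other, and H-RUN rather than L-RUN was the lowest. Smg1 has the longest transcript of the 10 genes (15557 bases), and long transcripts as a class had lower differences. With the genes split by length into 3 classes of like size, the median difference in L-RUN was -0.08 for the longest and 0.06 for the shortest. With the trend on transcript length removed, the differences of Smg1 were -0.11 in CE, -0.10 in RUN, -0.18 in H-RUN and -0.002 in L-RUN. The same step left Cwc22 at -1.15 in L-RUN and took Magoh, the shortest transcript at 692 bases, from 0.15 to 0.03.

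Upf2, the bridge between UPF3B and UPF1, was at 11.49 in LD, 11.34 in CE, 11.43 in RUN, 11.43 in H-RUN and 11.38 in L-RUN. Its lowest library was CE, with a difference of -0.15. Upf1, the helicase at the centre of NMD, was at 11.51 in LD, 11.53 in CE, 11.50 in RUN, 11.49 in H-RUN and 11.55 in L-RUN. Upf3b, the subunit that contacts the EJC, was at 10.03 in LD, 9.99 in CE, 10.07 in RUN, 10.003 in H-RUN and 10.07 in L-RUN. Before any adjustment, neither Upf1 nor Upf3b differed from LD by more than 1.5 technical SDs in any library. Quantile normalization took both Upf1 and Upf3b in L-RUN from 0.04 to 0.07. With the length trend removed, Upf1 went to 0.08 in L-RUN and from 0.02 to 0.04 in CE. Cwc27 was at 8.96 in LD, 9.03 in CE, 8.91 in RUN, 9.03 in H-RUN and 8.94 in L-RUN. Before any adjustment it had no difference above 1.40 technical SDs. In RUN it went from -0.05 to -0.09 with the length trend removed.

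**Figure D3:**
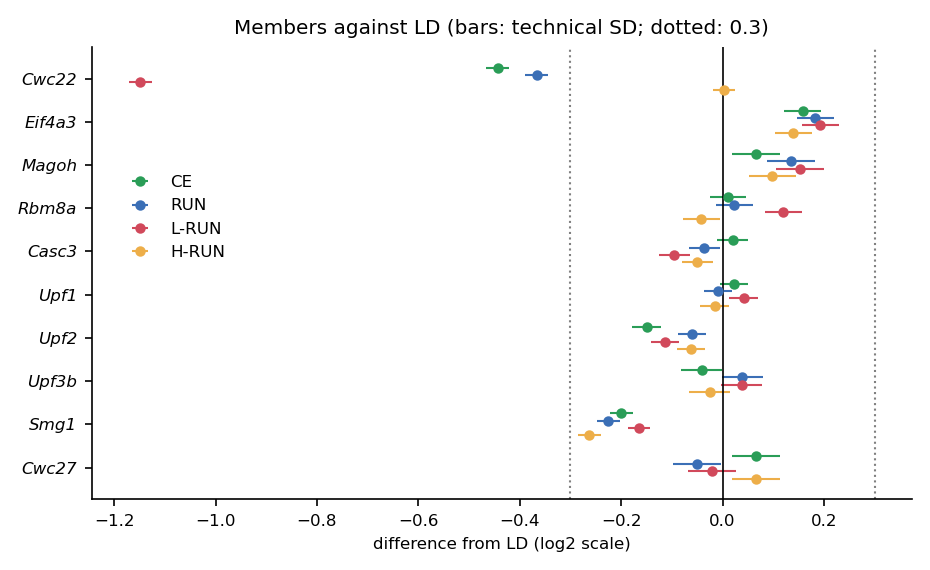
Difference from LD (x axis, log2 scale) of each gene (y axis) in CE, RUN, L-RUN and H-RUN, 1 point per library, with bars of 1 technical SD to each side and dotted lines at 0.3 in size. Only Cwc22 passes a dotted line, Eif4a3 lies at 0.14 to 0.19 in all 4 groups, and Smg1 lies at -0.26 to -0.17.

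The wider pathway was read from 7 lists with 80 expressed genes besides Cwc22. In CE and H-RUN 0 of the 80 were called, where 0.266% and 0.472% of expressed genes were lower and 0.332% and 0.354% higher. In RUN and in L-RUN 1 was called lower and 0 higher, and it was Arc each time, against 0.952% and 2.33% of expressed genes lower and 0.362% and 0.797% higher. These counts are near the shares of all expressed genes. The medians of the 80 genes were -0.02 in CE, 0.01 in RUN, -0.01 in H-RUN and 0.03 in L-RUN, beside medians of all expressed genes between -0.004 and -0.001.

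The splicing list holds the proteins that act beside CWC22 in the spliceosome, and of its 27 expressed genes Cwc22 was the only one called in any group. Prpf8, the large scaffold of the catalytic core, was 12.78 in LD and 12.60 in L-RUN, a difference of -0.18. Aqr, an RNA helicase of the intron-binding complex, had a difference of -0.15 in H-RUN and -0.17 in L-RUN. Snw1, another catalytic-stage protein, was below LD in all 4 groups, with differences of -0.16 in CE, -0.12 in RUN, -0.13 in H-RUN and -0.17 in L-RUN. The list had a median of 0.01 in L-RUN with Cwc22 included.

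Among the EJC core genes, Magohb, the close paralog of Magoh, lay between -0.05 and 0.05 in all groups. Of the peripheral and recycling genes, Wibg (now Pym1), which takes EJCs apart at the ribosome, was at 0.20 in CE, 0.07 in RUN, 0.12 in H-RUN and 0.21 in L-RUN, and Srrm1, a splicing coactivator, was in the same order at -0.10, -0.12, -0.14 and -0.08. The 12 NMD factors had a median of -0.03 in H-RUN and -0.06 in L-RUN. Nbas, which takes part in NMD and in vesicle transport, was lowest in L-RUN at -0.23. Upf3a, the paralog of Upf3b, was above LD by 0.06 in CE, 0.10 in RUN, 0.13 in H-RUN and 0.10 in L-RUN.

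In the export list, whose proteins carry spliced mRNA out of the nucleus, Thoc7 was highest in L-RUN with a difference of 0.18, and Thoc2 was lowest there with -0.16. Among the eIF4A paralogs and their scaffolds, Eif4g1, the scaffold of the cap-binding complex, differed by -0.11 in H-RUN and -0.25 in L-RUN. Eif4a1 and Eif4a2, the translation helicases closest to eIF4A3, lay between -0.09 and 0.08 in all groups.

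Genes with transcripts known as targets of NMD were read as a list of 14 expressed genes. Their values are per gene and do not separate transcript forms that are targets from those that are not. Arc, an immediate early gene of neurons whose transcript holds introns downstream of its stop codon, was 10.43 in LD, 10.39 in CE, 10.10 in RUN, 10.28 in H-RUN and 9.98 in L-RUN. Its differences were -0.33 in RUN and -0.45 in L-RUN, so L-RUN was its lowest library as it was for Cwc22. Gadd45a, a stress gene, differed by 0.06 in CE, 0.28 in RUN, 0.20 in H-RUN and 0.26 in L-RUN. Snhg12 and Gas5, hosts of small nucleolar RNAs, differed by 0.25 and 0.18 in L-RUN and by 0.06 and 0.01 in H-RUN. Srsf3, a splicing factor with a transcript form that is an NMD target, was below LD in all 4 groups, in the same order at -0.18, -0.16, -0.23 and -0.10. The median of the list was 0.01 in H-RUN and 0.06 in L-RUN.

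**Figure D4:**
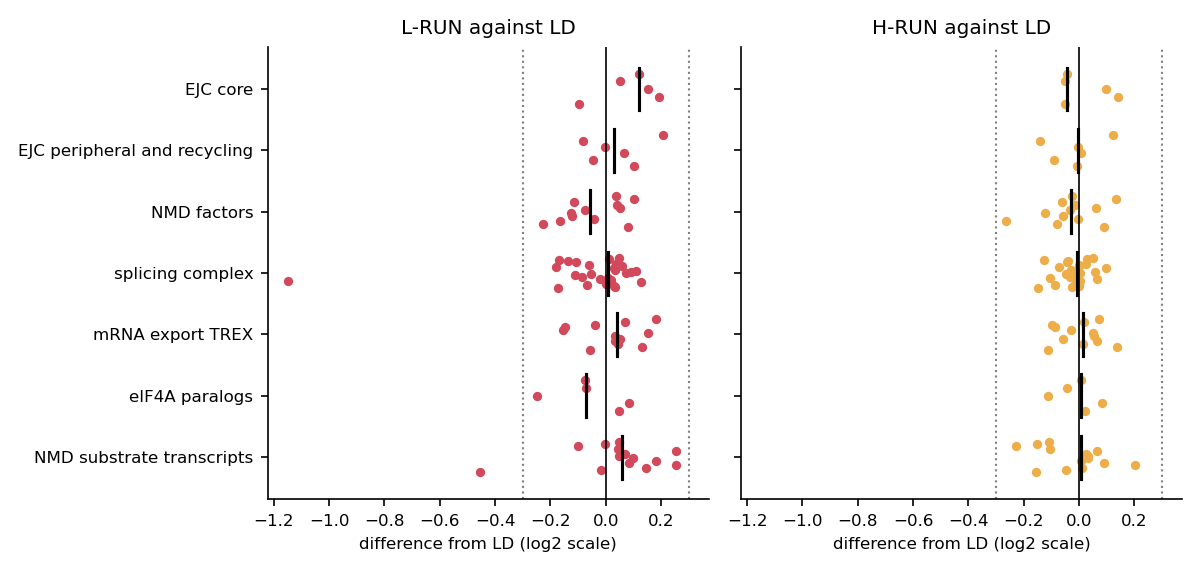
Difference from LD (x axis, log2 scale) in both runner pools, L-RUN left and H-RUN right, for each expressed gene in the 7 lists (y axis), 1 point per gene, with a black bar at the median of each list and dotted lines at 0.3 in size. Past the dotted lines in L-RUN lie Cwc22 at -1.15 and Arc at -0.45, and no gene lies past them in H-RUN.

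Of 27 annotated genes that start within 1 Mb of Cwc22, 4 were expressed, and 0 were called in any group. Over the groups, 0.266% to 2.33% of all expressed genes were called lower and 0.332% to 0.797% higher. The count of 0 of 4 is near these shares. Zfp385b, the closest of the 4, had a difference of 0.04 in H-RUN and -0.14 in L-RUN. In the same order, Sestd1 was at -0.14 and -0.15, Ccdc141 at 0.04 and -0.10, and Ube2e3 at 0.03 and 0.13. Around the copies of Cwc22, a window chosen after the data were seen, 15 genes were expressed, of which 1 was called lower and 2 higher in L-RUN, against 2.33% and 0.797% of all expressed genes. Fam171b, the closest expressed gene before the first copy, had differences of -0.19 in CE, -0.31 in RUN, -0.19 in H-RUN and -0.56 in L-RUN. It was lowest in L-RUN, as Cwc22 was, but unlike Cwc22 it was also below LD in H-RUN. Serping1 was above LD by 0.41 in L-RUN and 0.08 in H-RUN. Ypel4 was above LD by 0.31 in RUN, 0.31 in H-RUN and 0.38 in L-RUN, so it was called in all 3 groups of runners.

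**Figure D5:**
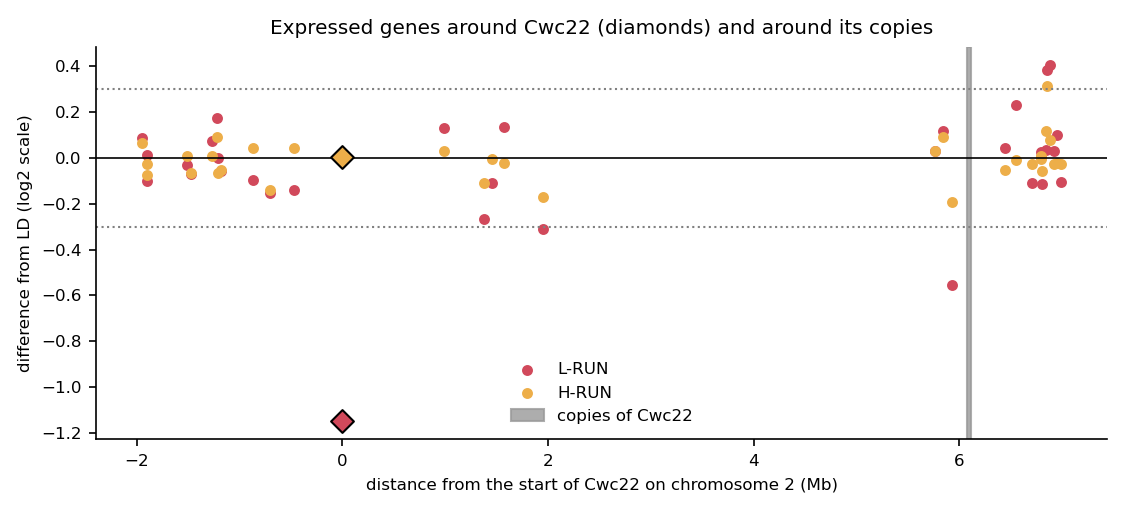
Difference from LD (y axis, log2 scale) in L-RUN and H-RUN of the expressed genes within 2 Mb of Cwc22 and within 1 Mb of its copies, by distance from the start of Cwc22 on chromosome 2 (x axis, Mb), with Cwc22 as diamonds and the copies as a grey band. Cwc22 in L-RUN lies at -1.15, and the next lowest gene is Fam171b at -0.56.

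The genes whose pattern over the 4 differences was most like that of Cwc22, each scaled to its own size, were Gm2115, Syt10, Dkk3, Il1f9, Epha6, Kcnj3, Gm19757 and Soga3. They were the nearest of 694 genes with a range of at least 0.3, over 5 libraries that share LD and the runners, and their distances were 0.12 to 0.16. Their differences in L-RUN were smaller than that of Cwc22, from -0.28 for Gm2115 to -0.50 for Epha6, an ephrin receptor. In H-RUN all 8 lay between -0.07 and 0.06. By differences that were not scaled, the 8 nearest genes were others, led by Dgkh and Grin2a, and 0 were shared.

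Markers of the tissue and of its surroundings also differed between these libraries. The marker lists were chosen with earlier results of these data known, so their counts are a description. All 12 leptomeningeal markers are among the genes that the paper lists as changed in L-RUN or in H-RUN. The 5 pyramidal cell markers called in L-RUN are likewise in its L-RUN list. All 8 granule cell markers were expressed, and in L-RUN 1 was called lower (Prox1, -0.41) and 2 higher (C1ql2, 0.37, and Plk5, 0.36), with a median of -0.07. Of 8 pyramidal cell markers, 5 were called lower than LD in L-RUN (median -0.32), against 2.33% of expressed genes, and 1 in H-RUN (median 0.06), against 0.472%. Between L-RUN and H-RUN 3 of them were lower and 0 higher (median -0.17), against 0.974% and 0.561%, while Fibcd1 and Coch had higher values in L-RUN, by 0.06 and 0.14. All 12 leptomeningeal markers were higher in L-RUN than in H-RUN by at least 0.3, against 0.561% of expressed genes, with a median of 0.73, and log2 of their summed level was 12.77 in LD, 13.00 in CE, 13.62 in RUN, 12.62 in H-RUN and 14.16 in L-RUN. Ptgds, with the largest of these differences, had a difference of -0.10 in H-RUN and 1.97 in L-RUN. Of 6 choroid plexus markers, 4 were below the level of expressed genes in all libraries. The median differences in L-RUN were -0.08 for astrocyte, -0.20 for oligodendrocyte, -0.11 for microglia, -0.03 for endothelial and -0.04 for interneuron markers. The part of these markers in the difference of Cwc22 between L-RUN and H-RUN was not tested. In bulk RNA, fewer cells of a type and less RNA per cell cannot be told apart.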

How the data were processed

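RNA of the DG was pooled by group and sequenced as 1 library for each of 5 groups. By the paper and the submitters' processing notes, reads were called with CASAVA 1.8.2, cleared of adapters, aligned to mm10 by TopHat2 2.0.10 and counted per RefSeq gene by HTSeq. The authors deposited regularized log values from DESeq2 1.10.1, on the log2 scale. Read counts were not used here, so the depth of each library and the precision it gives are unknown, and shrinkage could not be undone. Groups were taken from the labels.

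Differences from LD were computed for 13550 genes with a mean of at least 5. The technical SD came from the median absolute deviation of the RUN residual, per decile, taking the variance of that residual as 1.5 times that of a single library. This assumes equally noisy libraries and equal amounts of RNA. A lowess curve (fraction 0.3) over transcript length, known for 99.3% of expressed genes, served to take out the length trend. Positions and sequences came from GENCODE M21 and RefSeq on GRCm38. Neighbours were genes whose starts lay within 1 Mb of that of Cwc22.

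The members, gene lists and rules were chosen with earlier results of these data known. Named were the members, list genes past 0.3 and up to 4 more per list by size of difference, the neighbours, and the 8 genes most like Cwc22. Fam171b, Serping1 and Ypel4, single cell type markers, and the pathway genes outside this rule, were named after their values were seen. Alternatives were median centring, quantile normalization, removal of the length trend, a baseline averaged over LD and CE, other cut-offs, minimums and windows, and a mixture on the log scale. Genes not found or too low were Rbm8a2, Pym1 (found under Wibg), Snhg15, Folr1, Clic6, Kcne2 and Otx2. Scripts were tested on simulated data. Software was pandas 2.3.3, numpy 2.4.6, python 3.11.15, statsmodels 0.14.6, matplotlib 3.10.9 and biopython 1.88.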

Additional observations from a re-analysis of the deposited data

Results flagged for a closer look

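For 5 of the named genes, the L-RUN and the H-RUN library lay on opposite sides of LD and at least 0.3 apart on the log2 scale. The difference between these libraries was not tested, since each group had 1 library. Cwc22 was at -1.15 in L-RUN and 0.0029 in H-RUN, where the latter is less than the technical SD of 0.022. Ptgds, a leptomeningeal marker, was furthest apart, at 1.97 and -0.10. Among the genes most like Cwc22, Gm2115 was at -0.28 and 0.0261, Dkk3 at -0.36 and 0.0551, and Il1f9 at -0.47 and 0.0628. Dkk3 is also one of the pyramidal cell markers. Gm2115, Dkk3 and Il1f9 were chosen for their likeness to Cwc22, so their opposite sides of LD add no separate evidence.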

How the results depend on the processing

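Quantile normalization moved the differences of Cwc22 from LD to -0.41 in CE, -0.34 in RUN and -1.10 in L-RUN, and that between L-RUN and H-RUN to -1.11. With a baseline averaged over LD and CE they were -0.15 in RUN, 0.22 in H-RUN and -0.93 in L-RUN, since CE was lower than LD, and 0 of the 10 genes were called in RUN. Cut-offs of 0.2 and 0.4 gave 2 and 0 called genes in RUN, and the lower one gave 1 in H-RUN. The same baseline left Upf2 at 0.01 in RUN and H-RUN, where it was at -0.06 against LD. A mixture of log values left a residual of 0.21 for Cwc22. A window of 2 Mb held 1 called neighbour in L-RUN (Pde1a, -0.31) among 17 expressed genes. The window around the copies, added after the data were seen, had 15 expressed genes. It held 2 called genes in RUN, 1 in H-RUN and 3 in L-RUN. In RUN 1 was lower and 1 higher, against 0.952% and 0.362% of all expressed genes. In H-RUN 0 were lower and 1 higher, against 0.472% and 0.354%. In L-RUN 1 was lower and 2 higher, against 2.33% and 0.797%. Of 135 recomputed differences of the other 9 genes, 0 passed 0.3 and the largest was 0.259 in size. No paired analysis was possible because each group had 1 library, and no library could be left out of a group. The unknown depth limits what can be said of small differences, and the shrinkage makes differences of low genes look smaller.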
